A study of Mus musculus with 4 samples.

Results

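The integrated stress response and the unfolded protein response were followed through 35 genes, picked by symbol from a list that joins both pathways. The list splits into an ATF4 amino acid arm of 19 genes and an endoplasmic reticulum (ER) chaperone arm of 16 genes. All 35 were found by symbol among the 49585 genes of the count files, and all 35 passed the filter on low counts that left 15886 genes to be tested. Stranded mRNA libraries were sequenced from C2C12, a myoblast line from C3H mice that fuses into myotubes when serum is lowered. One group had been transduced with an empty retrovirus (pLXSN) and the other with a retrovirus for overexpression of C/EBPβ, a leucine zipper transcription factor. All cells had been selected with 1200 µg/ml G418 for 7 days, kept as pools of resistant cells rather than clones, left to proliferate for 2 days and then held in 2% horse serum for 2 days. The promoter and the species of the C/EBPβ cDNA are not given in the sources used here. Each group had 2 libraries, and the 4 libraries held 36461091 to 51537847 assigned fragments. The labels do not state whether replicates were grown separately. A p-value here weighs the group difference against the spread of replicate libraries, which is estimated with information from all genes tested. That spread may be technical.

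The integrated stress response starts when a kinase senses missing amino acids, misfolded ER protein, viral RNA or haem deficiency and phosphorylates the initiation factor eIF2. Bulk translation then drops while the mRNA of ATF4 is translated more, and ATF4 binds, often as a dimer with a C/EBP family protein, to composite elements in genes of amino acid synthesis, transport and tRNA charging. The unfolded protein response of the ER runs beside it through IRE1, which splices the Xbp1 mRNA, through ATF6, which is cleaved in the Golgi, and through PERK, the eIF2 kinase of the ER. XBP1 and ATF6 switch on chaperones, disulfide isomerases and the machinery that sends misfolded protein to the proteasome. Gene-level counts measure mRNA abundance, so they show neither the translation of ATF4, nor the splicing of Xbp1, nor the cleavage of ATF6.

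Promoter windows of both arms were searched for response elements of the pathways, and the windows below were chosen because they hold a match in genes that the later results turn on. Windows of 300 bases, from 250 before to 50 after a RefSeq transcription start on GRCm38.p6, were found for 16 genes of the ATF4 arm (20 windows) and 13 of the ER chaperone arm (13 windows). The C/EBP-ATF response element (CARE) was searched as TGATGNAA on both strands and was matched in 5 of the 16 ATF4 arm genes, namely Chac1, Asns, Fgf21, Nupr1 and Vldlr. It was matched in 1 of the 13 ER chaperone genes, Herpud1, and in 4.51% of the 27025 genes of the table (3.97% of its 32851 windows). The ER stress response element (ERSE), searched as CCAAT and CCACG separated by any 9 bases on both strands, was matched in 6 of the 13 ER chaperone genes, in none of the ATF4 arm genes and in 0.137% of all genes (0.119% of windows). The 6 genes were Hspa5, Hsp90b1, Dnajc3, Creld2, Pdia6 and Calr, and Hsp90b1 held 2 matches. ERSE-II, ATTGG and CCACG separated by any 1 base, was matched in Herpud1 alone of both arms and in 0.0444% of all genes (0.0365% of windows). The XBP1 and ATF6 element searched as TGACGTGG was matched in no member, against 0.714% of all genes (0.676% of windows), and a C/EBP site searched as TTGCNNAA was matched in Vldlr and Xbp1, against 12.2% of all genes (10.8% of windows). Most ATF4 arm genes with a window thus held no CARE match, while in the ER chaperone arm 6 of 13 genes held ERSE and Herpud1 held ERSE-II. No CARE match overlapped an ERSE or ERSE-II match, and a match describes letters, not binding. Capitals mark the CARE, ERSE and ERSE-II matches in the RefSeq sequences that follow, each written 5′ to 3′ along the strand of the gene.

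The first 4 windows belong to ATF4 arm genes with a CARE match, at chr6:7693160-7693459 (minus strand) for Asns, chr2:119350992-119351291 (plus) for Chac1, chr7:45615441-45615740 (minus) for Fgf21 and chr19:27216770-27217069 (plus) for Vldlr, which is the start nearer to the gene body of the pair listed for Vldlr.
Asns: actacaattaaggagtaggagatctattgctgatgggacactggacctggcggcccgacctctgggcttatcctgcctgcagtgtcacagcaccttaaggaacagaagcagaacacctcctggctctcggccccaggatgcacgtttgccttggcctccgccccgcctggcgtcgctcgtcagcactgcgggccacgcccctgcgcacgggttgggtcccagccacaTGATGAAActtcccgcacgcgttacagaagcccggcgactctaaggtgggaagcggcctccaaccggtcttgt
Chac1: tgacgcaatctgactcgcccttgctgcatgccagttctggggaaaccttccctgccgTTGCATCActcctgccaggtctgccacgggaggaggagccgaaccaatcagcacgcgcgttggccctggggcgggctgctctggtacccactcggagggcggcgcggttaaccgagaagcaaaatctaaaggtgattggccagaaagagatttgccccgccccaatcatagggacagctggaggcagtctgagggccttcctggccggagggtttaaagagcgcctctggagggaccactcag
Fgf21: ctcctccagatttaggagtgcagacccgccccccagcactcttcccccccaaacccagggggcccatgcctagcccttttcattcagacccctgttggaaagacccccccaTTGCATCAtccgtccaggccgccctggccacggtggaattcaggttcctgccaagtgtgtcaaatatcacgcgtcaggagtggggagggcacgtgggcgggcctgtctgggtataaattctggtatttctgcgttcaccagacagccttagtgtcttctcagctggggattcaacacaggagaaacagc
Vldlr: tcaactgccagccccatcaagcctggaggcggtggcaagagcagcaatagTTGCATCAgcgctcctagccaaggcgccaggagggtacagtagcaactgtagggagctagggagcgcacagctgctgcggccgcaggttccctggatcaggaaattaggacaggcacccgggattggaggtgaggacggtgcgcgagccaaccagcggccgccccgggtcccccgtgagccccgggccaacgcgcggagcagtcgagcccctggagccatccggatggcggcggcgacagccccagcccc

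The other 4 belong to the ER chaperone arm, at chr2:34771840-34772139 (plus) for Hspa5, chr10:86705395-86705694 (minus) for Hsp90b1, chr8:84846882-84847181 (minus) for Calr and chr8:94386179-94386478 (plus) for Herpud1. Herpud1 is shown because its window holds both a CARE match and an ERSE-II match.
Hspa5: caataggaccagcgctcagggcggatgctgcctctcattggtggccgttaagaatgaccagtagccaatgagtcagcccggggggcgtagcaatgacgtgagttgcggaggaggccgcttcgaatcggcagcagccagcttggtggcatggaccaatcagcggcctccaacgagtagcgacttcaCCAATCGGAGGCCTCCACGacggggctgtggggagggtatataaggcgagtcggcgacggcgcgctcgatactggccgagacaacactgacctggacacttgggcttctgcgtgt
Hsp90b1: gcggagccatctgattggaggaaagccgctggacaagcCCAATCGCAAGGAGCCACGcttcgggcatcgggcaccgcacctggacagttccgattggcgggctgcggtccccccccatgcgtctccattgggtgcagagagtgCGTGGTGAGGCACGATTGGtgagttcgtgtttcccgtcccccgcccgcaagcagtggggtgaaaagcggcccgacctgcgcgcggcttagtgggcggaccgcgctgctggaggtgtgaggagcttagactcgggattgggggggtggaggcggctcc
Calr: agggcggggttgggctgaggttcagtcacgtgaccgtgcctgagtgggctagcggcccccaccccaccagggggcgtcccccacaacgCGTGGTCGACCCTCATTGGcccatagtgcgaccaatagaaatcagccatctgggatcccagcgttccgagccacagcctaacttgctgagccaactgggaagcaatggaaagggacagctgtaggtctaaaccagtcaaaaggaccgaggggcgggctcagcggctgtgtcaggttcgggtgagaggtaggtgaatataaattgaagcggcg
Herpud1: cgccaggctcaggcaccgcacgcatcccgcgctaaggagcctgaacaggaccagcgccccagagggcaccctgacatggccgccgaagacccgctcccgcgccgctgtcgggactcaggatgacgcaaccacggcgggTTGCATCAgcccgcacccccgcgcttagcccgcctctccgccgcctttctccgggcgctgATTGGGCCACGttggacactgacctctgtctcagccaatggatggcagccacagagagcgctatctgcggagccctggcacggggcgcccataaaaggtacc

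**Figure D1:**
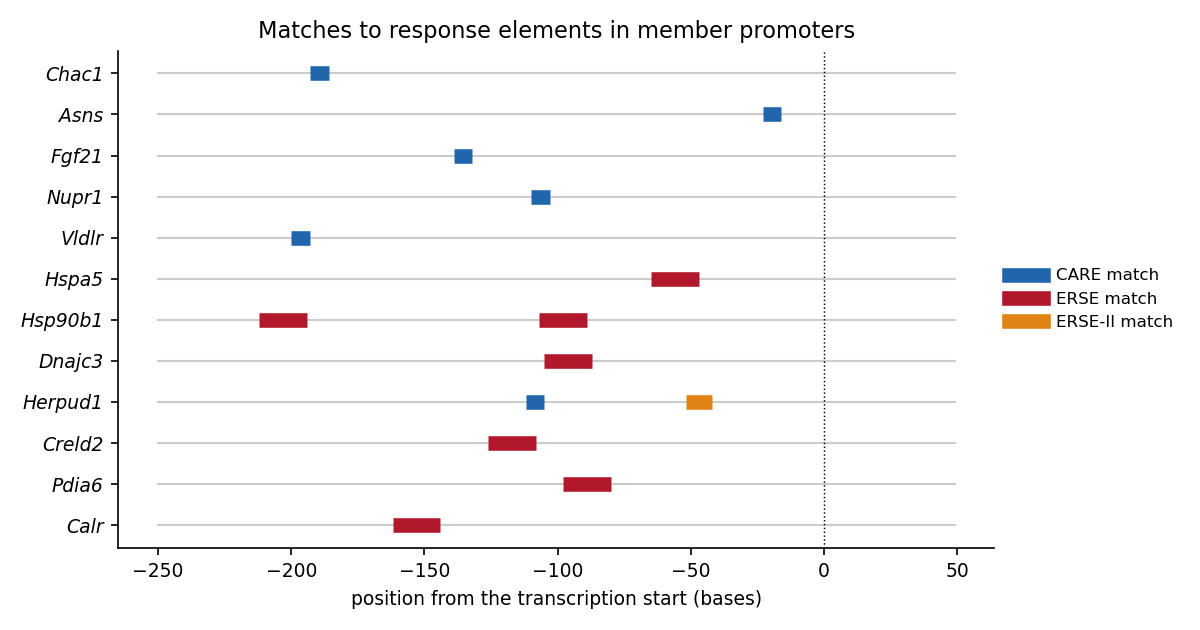
Position of CARE, ERSE and ERSE-II matches (coloured blocks) in the 300-base promoter windows of the 12 members that hold one, in bases from the transcription start (dotted line). The CARE matches of the ATF4 arm lie between 200 and 16 bases before the start, and the ERSE matches of the ER chaperone arm between 212 and 47 bases before it.

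Cells with extra C/EBPβ had less mRNA of much of the ATF4 amino acid arm, while most of the ER chaperone arm did not pass the test. Of the 19 ATF4 arm genes 8 fell, 1 rose and 10 did not pass, with a median log2 fold change of -0.52. Of the 16 ER chaperone arm genes 2 fell, 3 rose and 11 did not pass, with a median of 0.04. Over all genes tested, 43.2% were called in edgeR's quasi-likelihood test at an adjusted p under 0.05, 22.3% as higher and 20.9% as lower, with a median of 0.01. Against that background the share called was 47.4% in the ATF4 arm, of which 42.1% lower and 5.26% higher, and 31.2% in the ER chaperone arm, of which 12.5% lower and 18.8% higher. Fits without 1 library, here and below, leave 1 library in its group, which is then assumed to vary like the others. Without empty-vector replicate 1 or without empty-vector replicate 2, 4 genes of the ATF4 arm were called lower, and without overexpressing replicate 2 the count was 12. Without overexpressing replicate 1, 2 genes of the arm were called higher, Atf5 beside Vldlr. Over all genes, 3540 were called higher and 3324 lower, against 2083 and 1824 without empty-vector replicate 2. In the ER chaperone arm, 1 gene was called higher without empty-vector replicate 1 or overexpressing replicate 2 and none without empty-vector replicate 2, and 1 was called lower without either control or without overexpressing replicate 1.

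**Figure D2:**
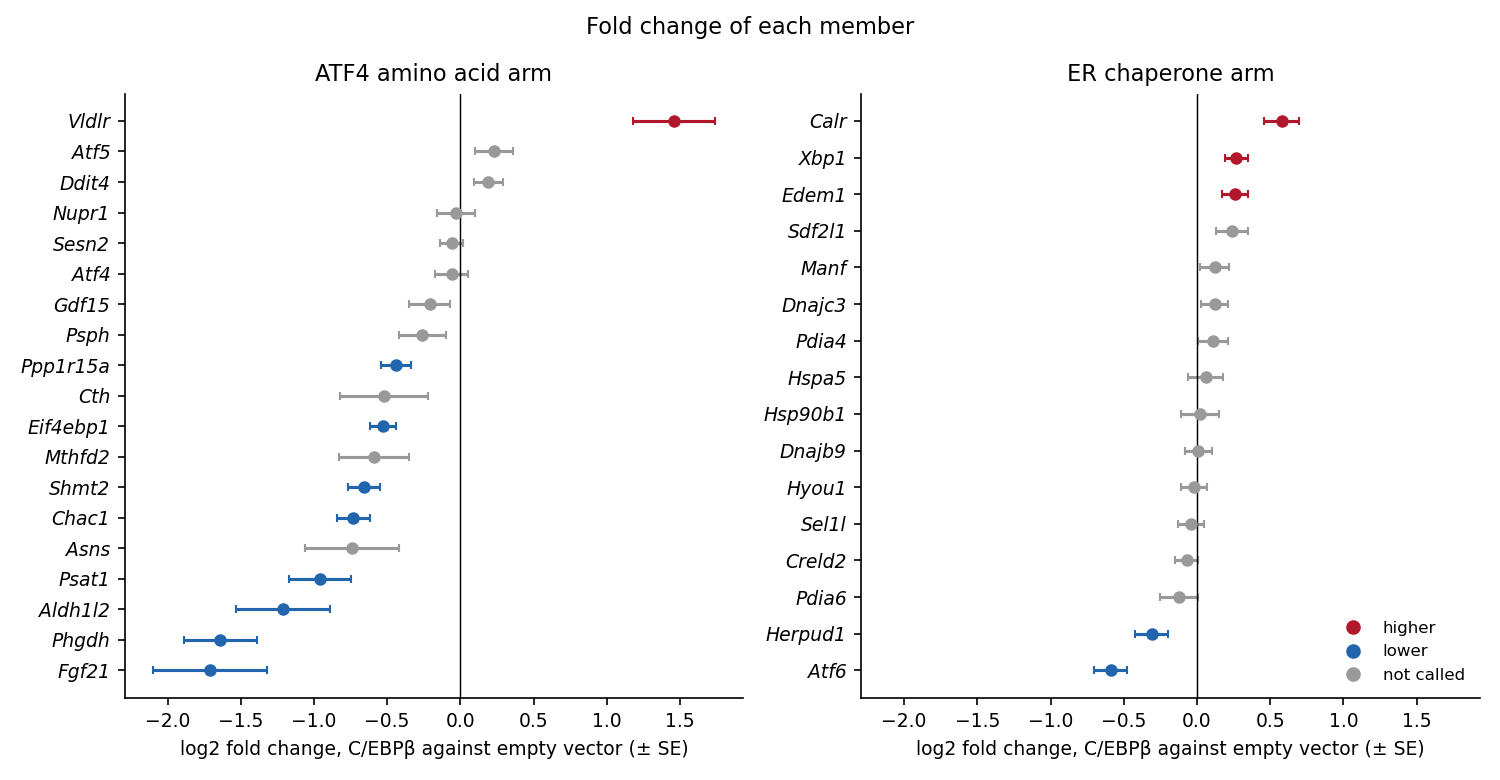
Log2 fold change of each member, C/EBPβ against empty vector, with its standard error (bars), for the ATF4 amino acid arm (left) and the ER chaperone arm (right). Colours give the call at an adjusted p under 0.05: ATF4 arm values run from -1.71 for Fgf21 to 1.46 for Vldlr, and ER chaperone arm values only from -0.59 for Atf6 to 0.58 for Calr.

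The enzymes of serine synthesis and of the mitochondrial folate pathway, which together supply glycine and formate, held the larger falls of the arm apart from Fgf21. Phgdh, the first enzyme of serine synthesis from glycolysis, stood at 88.4 and 113 CPM (fragment counts scaled to a common library total) in the empty-vector libraries and at 25.6 and 39.3 CPM in the overexpressing ones. Both overexpressing libraries were thus far below both controls, and the log2 fold change was -1.64 (SE 0.25, adjusted p = 0.00765 in edgeR, n = 2 in each group), a 3.10-fold fall. An order with both overexpressing libraries below both controls held for 36.7% of all genes tested. Psat1, the aminotransferase of the next step, went from 362 and 435 CPM to 163 and 247 CPM, its log2 fold change being -0.96 (SE 0.21, adjusted p = 0.0153 in edgeR). Psph, the phosphatase that releases serine, overlapped between the groups at 23.9 and 29.9 CPM against 19.6 and 25.5 CPM and did not pass (-0.26, SE 0.16). Without overexpressing replicate 2 its log2 fold change was -0.47, but that replicate, at 25.5 CPM, lay between the 2 controls. The 3 steps of serine synthesis therefore had unequal values, in the order of their place in the pathway.

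Shmt2, the mitochondrial enzyme that splits serine into glycine and a folate-bound carbon, was at 134 and 148 CPM in the controls and at 79.6 and 98.3 CPM with C/EBPβ. It fell by 0.66 on the log2 scale (SE 0.11, adjusted p = 0.00278 in edgeR, n = 2 each). Aldh1l2, a mitochondrial folate dehydrogenase, fell from 30.8 and 36.7 CPM to 10.2 and 19.1 CPM, its log2 fold change being -1.21 (SE 0.32, adjusted p = 0.0413 in edgeR). Mthfd2, which oxidises the folate-bound carbon, stood at 133 and 169 CPM and at 78.9 and 122 CPM. Its groups did not overlap, yet its log2 fold change of -0.59 (SE 0.24) had an adjusted p of 0.118 in edgeR and did not pass. In all, 4 of these 6 enzymes fell, with a median of -0.81 over the 6. Phgdh shares 47.8% of the 50-base windows of its transcripts with other annotated genes, chiefly Gm7901, which drew only 2 to 13 fragments a library. How fragments from the shared windows were assigned was not examined. The Phgdh counts are therefore uncertain, and the few fragments of Gm7901 do not bound that uncertainty. Without empty-vector replicate 1 the adjusted p was 0.0503 for Psat1 and 0.139 for Aldh1l2, and without empty-vector replicate 2 it was 0.117 for Psat1, 0.203 for Aldh1l2 and 0.0623 for Phgdh.

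Asns, which makes asparagine and is the classic amino acid response gene, stood at 109 and 143 CPM in the controls and at 55.4 and 96.01 CPM in the overexpressing libraries. Both overexpressing values were below both controls but lay far from each other, and the log2 fold change of -0.74 (SE 0.32, adjusted p = 0.143 in edgeR, n = 2 each) did not pass. Chac1, which breaks down glutathione and is a sensitive target of ATF4, was tighter within its groups, at 36.1 and 41.2 CPM against 21.6 and 25.1 CPM. It fell with nearly the same fold change as Asns had (-0.73, SE 0.11, adjusted p = 0.00137 in edgeR). Cth, which makes cysteine from cystathionine, was scarce, at 2.35 and 3.87 CPM against 1.80 and 2.62 CPM, and its groups overlapped (-0.52, SE 0.30, adjusted p = 0.202). Asns and Mthfd2 passed in limma-voom (adjusted p = 0.0344 and 0.0431) and in edgeR without robust estimation (0.0408 and 0.0472). Their log2 fold changes were -0.40 and -0.31 without overexpressing replicate 1, and -1.20 and -0.95 without overexpressing replicate 2. Cth had -0.81 without overexpressing replicate 2, the library that lay between its controls at 2.62 CPM. Such fits keep 1 overexpressing library, so they cannot see the spread between the 2 and do not decide whether these genes pass.

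Among 4 regulators of translation and of the growth kinase mTORC1, 2 fell and 2 did not pass. Eif4ebp1, which holds back cap-dependent translation, fell from 92.3 and 103 CPM to 63.4 and 72.1 CPM (log2 fold change -0.53, SE 0.09, adjusted p = 0.00305 in edgeR, n = 2 each). Ppp1r15a, the phosphatase subunit GADD34 that reverses eIF2 phosphorylation, fell from 43.4 and 41.0 CPM to 33.9 and 28.2 CPM (-0.44, SE 0.10, adjusted p = 0.0104). For both genes the overexpressing libraries lay below the controls. Sesn2, a leucine sensor that restrains mTORC1, stood within 29.8 to 31.4 CPM in all 4 libraries (-0.06, SE 0.08), and Ddit4, another inhibitor of mTORC1, at 37.7 and 44.6 CPM against 46.5 and 47.1 CPM (0.19, SE 0.10), and neither passed although the groups of neither gene overlapped. Ppp1r15a had an adjusted p of 0.066 without empty-vector replicate 1.

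The secreted products of the response differed from each other. Fgf21, a hormone released by stressed muscle and liver, fell from 68.0 and 83.2 CPM to 15.3 and 31.5 CPM, the lowest fold change of all members (-1.71, SE 0.39, adjusted p = 0.0315 in edgeR, n = 2 each). Both overexpressing libraries were below both controls, and replicate 1 was the lower. Gdf15, the other stress hormone, was at 13.7 and 14.9 CPM and at 13.6 and 10.9 CPM and did not pass (-0.21, SE 0.14), its groups being apart by less than the distance between replicates. Fgf21 lost its call without empty-vector replicate 1 or 2 (adjusted p = 0.12 and 0.181) and without the filter on low counts (0.223, where Aldh1l2 had 0.166).

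Vldlr, a lipoprotein receptor induced by ATF4 in other cells, was the only riser of the arm. It stood at 8.57 and 4.82 CPM in the controls and at 20.5 and 16.2 CPM with C/EBPβ, its log2 fold change being 1.46 (SE 0.28, adjusted p = 0.0107 in edgeR, n = 2 each). It is also the member with both a CARE match and, at its other start, a C/EBP match. Nupr1, a small stress-induced nuclear protein, had overlapping groups at 57.7 and 69.1 CPM against 55.5 and 69.2 CPM and did not pass (-0.03, SE 0.13). The CARE-bearing genes of the ATF4 arm thus included 2 that fell (Chac1 and Fgf21), 1 that rose (Vldlr) and 2 that did not pass (Asns and Nupr1). Herpud1, the CARE-bearing gene of the ER chaperone arm, fell as well (-0.31, adjusted p = 0.0468 in edgeR). Over all genes tested, 20.9% were called lower and 22.3% higher.

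The transcription factors at the head of the arm did not pass. Atf4 mRNA stood at 427 and 500.1 CPM in the controls and at 444 and 445 CPM in the overexpressing libraries, which lay inside the range of the controls (log2 fold change -0.06, SE 0.11, adjusted p = 0.692 in edgeR, n = 2 each). Atf5, a relative that is translated in the same manner, was at 153 and 180.5 CPM and at 173 and 217 CPM (0.23, SE 0.13, adjusted p = 0.21). Its log2 fold change was 0.38 without overexpressing replicate 1, the library that lay between its controls at 173 CPM. Per kilobase of exon, Atf4 was the most abundant gene of its arm in the controls, at 871 ± 86.3 TPM (counts scaled by exon length and then to a common total, mean ± SD, n = 2), followed by Psat1 at 303 ± 35.5, Atf5 at 271 ± 28.0 and Fgf21 at 257 ± 33.5. Those 3 followers lay within about 1 SD of their neighbours in that order. Vldlr, at 2.16 ± 0.878, and Cth, at 3.61 ± 1.20, were the least abundant of the arm on the same scale.

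**Figure D3:**
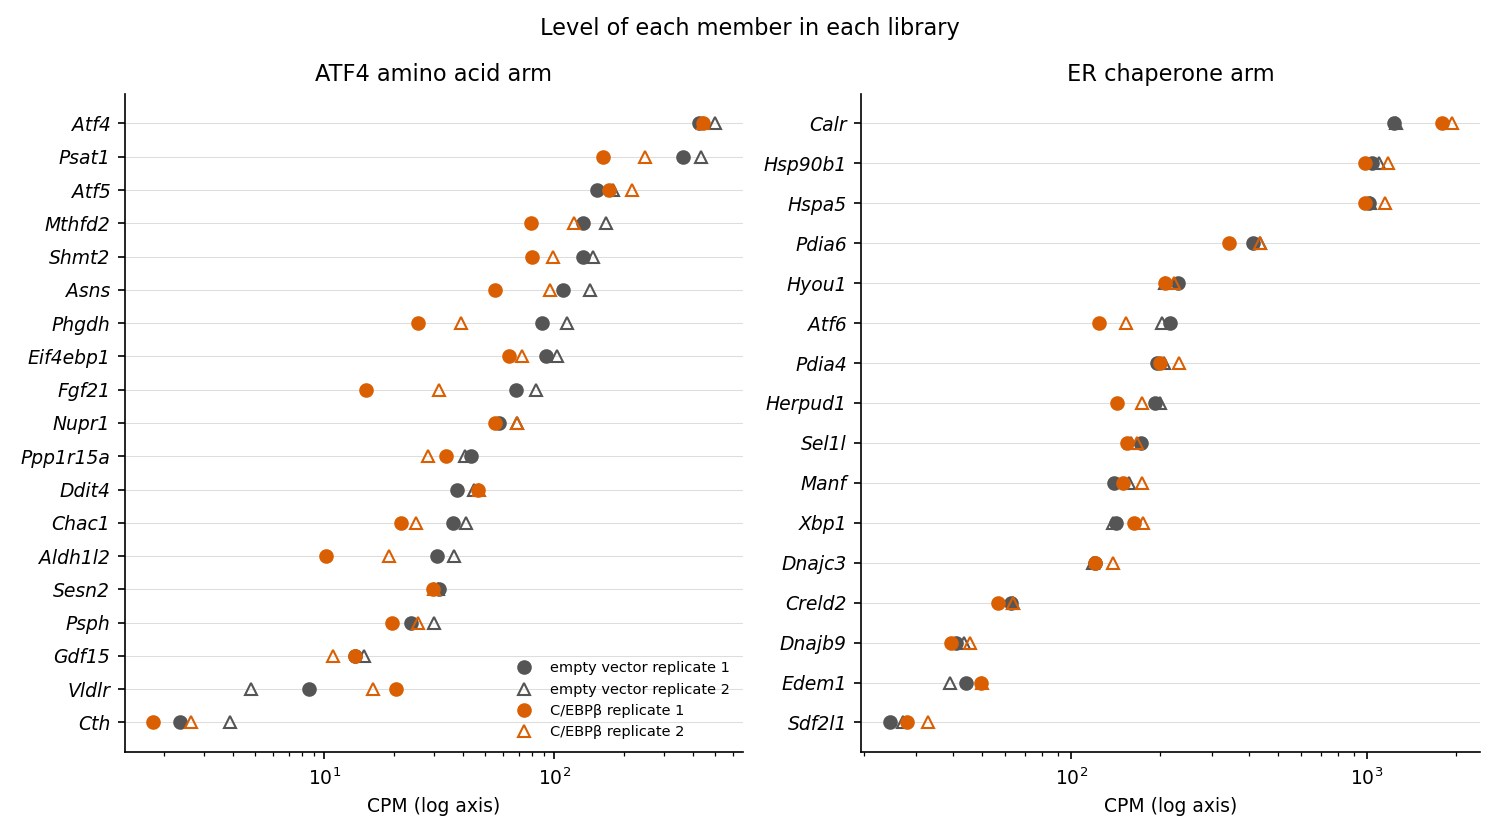
Level of every member in each of the 4 libraries, in CPM on a log axis, ordered by the control mean, with grey for empty vector, orange for C/EBPβ, filled circles for replicate 1 and open triangles for replicate 2. In the ATF4 arm (left) the orange points of Phgdh, Psat1, Aldh1l2 and Fgf21 lie left of all grey points, whereas in the ER chaperone arm (right) the points of Hspa5, Hsp90b1 and Hyou1 overlap.

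In the ER chaperone arm the central chaperones did not pass the test. Hspa5 (BiP), the HSP70 of the ER lumen and the usual readout of ER stress, stood at 1017.5 and 1025 CPM in the controls and at 980.0 and 1148 CPM in the overexpressing libraries. Hsp90b1 (GRP94), its HSP90 partner, stood at 1039.8 and 1097 CPM and at 985 and 1178 CPM. For both genes the controls lay between the overexpressing libraries, and the log2 fold changes of 0.06 (SE 0.12) and 0.02 (SE 0.13) did not pass (adjusted p = 0.727 and 0.927 in edgeR, n = 2 each). Hyou1, a nucleotide exchange factor for BiP, was at 230 and 208 CPM against 208 and 222 CPM (-0.02, SE 0.09).

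None of the co-chaperones, isomerases and secreted products passed with all 4 libraries. Dnajb9 (ERdj4), a strong target of XBP1, was at 40.8 and 43.4 CPM against 39.3 and 45.6 CPM (log2 fold change 0.01, SE 0.09). Dnajc3 (p58IPK), which works with BiP and restrains PERK, had 0.12 (SE 0.09), and Sdf2l1, a partner of ERdj proteins, had 0.24 (SE 0.11), the largest value among those that did not pass in this arm. The isomerases Pdia4 and Pdia6, which form disulfide bonds, had 0.11 (SE 0.10) and -0.12 (SE 0.13). Manf and Creld2, luminal proteins that are secreted under ER stress, had 0.12 (SE 0.10) and -0.07 (SE 0.08). Among the genes that did not pass in the arm, the groups of Dnajc3 and Sdf2l1 did not overlap and those of the other 9 did. Over all genes tested, both overexpressing libraries lay above both controls for 38.4% and below both for 36.7%. The log2 fold change of Sdf2l1 was 0.35 without overexpressing replicate 1, which at 27.8 CPM lay close to empty-vector replicate 2 at 27.0 CPM. That of Pdia6 was -0.32 without overexpressing replicate 2 and 0.03 without overexpressing replicate 1.

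Calr, the calcium-binding lectin chaperone of glycoproteins, was the exception among the chaperones. It stood at 1236 and 1255 CPM in the controls and at 1787 and 1930.2 CPM with C/EBPβ, so both overexpressing libraries were above both controls. Its log2 fold change was 0.58 (SE 0.12, adjusted p = 0.00559 in edgeR, n = 2 each), a 1.49-fold rise. Per kilobase it was the most abundant of all 35 members, at 1401 ± 2.47 TPM in the controls and 2242 ± 86.0 TPM with C/EBPβ. The 16 genes of the arm made up 0.523 ± 0.00647% of all assigned fragments without and 0.603 ± 0.0434% with C/EBPβ, and the 15 other than Calr made up 0.401 ± 0.00514% and 0.414 ± 0.0372%. Without empty-vector replicate 1 or 2 the adjusted p of Calr was 0.0576 and 0.0577, at nearly the same fold change (0.57 and 0.59).

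The sensor gene Atf6 and the transcription factor gene Xbp1 moved in opposite directions. Atf6, the membrane-bound transcription factor, fell from 215 and 203 CPM to 125 and 154 CPM (log2 fold change -0.59, SE 0.11, adjusted p = 0.00398 in edgeR, n = 2 each). Xbp1, whose mRNA is the substrate of IRE1, rose from 142 and 138 CPM to 163 and 174 CPM (0.27, SE 0.08, adjusted p = 0.0305). Neither gene's groups overlapped. Xbp1 had an adjusted p of 0.0972 and 0.155 without empty-vector replicate 1 and 2 and of 0.122 without overexpressing replicate 2.

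The 3 members of ER-associated degradation, which returns misfolded protein to the cytosol, had 3 different outcomes. Herpud1, a scaffold of the degradation complex that answers to both ATF4 and ATF6, fell from 192 and 199.5 CPM to 143 and 173 CPM (log2 fold change -0.31, SE 0.11, adjusted p = 0.0468 in edgeR, n = 2 each). Edem1, a lectin-like mannosidase, rose from 44.2 and 38.9 CPM to 49.6 and 50.1 CPM (0.26, SE 0.09, adjusted p = 0.0382). Sel1l, the adaptor of the ubiquitin ligase, was at 172 and 159 CPM against 155 and 167 CPM and did not pass (-0.04, SE 0.09). Herpud1 lost its call without empty-vector replicate 1 or 2 or overexpressing replicate 1 (adjusted p = 0.119, 0.2 and 0.227), with library sizes alone (0.0666), with a filter at 1 CPM (0.0509) and without robust estimation (0.0516). Edem1 lost its call in DESeq2 (0.0931), without empty-vector replicate 2 (0.231) and without overexpressing replicate 1 or 2 (0.0521 and 0.0826).

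The libraries of a group differed from each other in the ATF4 arm. Of its 19 genes 16 were higher in empty-vector replicate 2 than in replicate 1, 16 in overexpressing replicate 2 than in its replicate 1, and 15 were higher in replicate 2 in both groups. Over all genes tested these shares were 48.7%, 49.4% and 28.0%. Relative to the mean of the controls, the mean of log2(CPM + 0.5) over the arm was -0.09 and 0.09 in the 2 controls, -0.60 in overexpressing replicate 1 and -0.29 in overexpressing replicate 2. Both overexpressing libraries were thus lower than both controls, and replicate 1 was the lower of them. In the ER chaperone arm the same measure was 0.00 in both controls and -0.06 and 0.13 in the overexpressing libraries, and overexpressing replicate 2 exceeded replicate 1 in all 16 genes. The 9 markers of myogenic cells moved beside the ATF4 arm, since all 9 fell, against 20.9% of all genes tested. Their summed level was 21069 and 23452 CPM in the controls and 5968 and 9535 CPM in the overexpressing libraries. Their part in the ATF4 arm result was not tested, and in bulk RNA fewer cells of a type and less RNA per cell cannot be told apart.

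**Figure D4:**
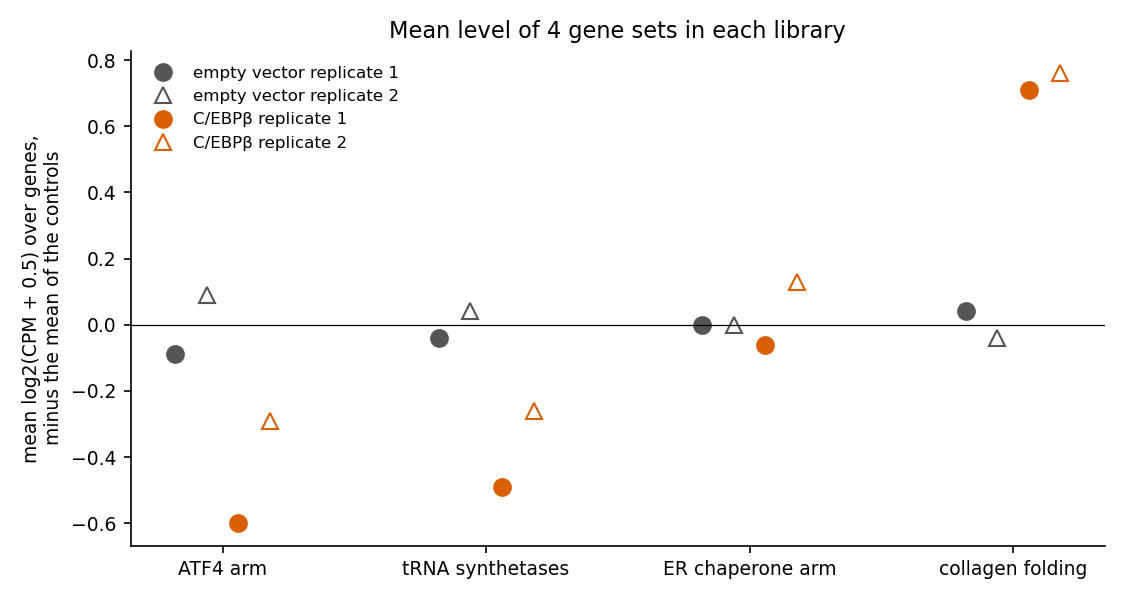
Mean of log2(CPM + 0.5) over the genes of 4 sets in each library, minus the mean of the 2 controls, with the same symbols for groups and replicates as in the plot of member levels. The ATF4 arm lies at -0.60 and -0.29 in the overexpressing libraries and collagen folding at 0.71 and 0.76, while the ER chaperone arm lies at -0.06 and 0.13.

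Around the ATF4 arm, genes upstream of ATF4 and genes of its partners moved in both directions. Among 17 genes of the eIF2 kinases, their substrate eIF2, its exchange factor eIF2B and the partners of ATF4, 8 fell and 3 rose, with a median log2 fold change of -0.24. These are 47.1% lower and 17.6% higher, against 20.9% and 22.3% of all genes tested. The kinases Eif2ak3 (PERK) and Eif2ak4 (GCN2, the sensor of uncharged tRNA) rose, with values of 0.52 (SE 0.10, adjusted p = 0.00374 in edgeR, n = 2 each) and 0.44 (SE 0.09, adjusted p = 0.00477). The kinases Eif2ak1 (-0.02, adjusted p = 0.87 in edgeR) and Eif2ak2 (0.15, adjusted p = 0.24) did not pass. The third riser was Ddit3 (CHOP), the stress-induced C/EBP relative, at 26.5 and 27.3 CPM against 39.8 and 33.5 CPM (0.45, SE 0.10, adjusted p = 0.00924). Trib3, a pseudokinase target of ATF4 and CHOP, fell from 10.9 and 16.4 CPM to 5.63 and 8.01 CPM (-1.01, SE 0.25, adjusted p = 0.0205), and Atf3, a further ATF of the response, from 13.1 and 13.9 CPM to 7.92 and 5.08 CPM (-1.04, SE 0.20, adjusted p = 0.00552). Eif2b2, a subunit of eIF2B, fell by 0.47 on the log2 scale (SE 0.09, adjusted p = 0.00482). Without empty-vector replicate 2 only 2 genes of this list were called lower, and Trib3 and Atf3 had adjusted p = 0.0879 and 0.0519, while Ddit3 had 0.0566 without empty-vector replicate 1.

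The cytosolic tRNA synthetases, which charge tRNAs and many of which are ATF4 targets, fell or did not pass. Of 20 genes 13 fell (65%, against 20.9% of all genes) and none rose in edgeR, with a median of -0.39 for the log2 fold change and values from -0.83 to 0.06, and none rose at an unadjusted p under 0.05, in DESeq2 or in limma-voom. Mars went from 196 and 211 CPM to 115 and 147 CPM (-0.64, SE 0.12, adjusted p = 0.00479 in edgeR, n = 2 each), Sars had -0.51 (SE 0.10) and Aars -0.57 (SE 0.12). In all 20, overexpressing replicate 2 exceeded replicate 1, an order seen also in 16 of 19 genes of the ATF4 arm, all 16 of the ER chaperone arm and 18 of 22 of the translocation list described below. The number called lower was 8 without empty-vector replicate 1 and 3 without empty-vector replicate 2, where Aars, which shares 13.5% of its windows with other genes, had an adjusted p of 0.0535.

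Amino acid transporters and the remaining amino acid and folate enzymes showed no common direction. Of 15 transporters 3 rose and 4 fell, with a median of -0.06, and these shares of 20% and 26.7% were near the 22.3% and 20.9% of all genes. Outside the naming rule, Slc7a11 (-1.21 on the log2 scale), Slc7a1 (-0.93) and Slc7a5 (-0.72) fell and Slc43a1 (1.46) rose. Slc7a2, a cationic amino acid transporter, rose from 68.1 and 45.1 CPM to 241 and 226 CPM (log2 fold change 2.04, SE 0.20, adjusted p = 0.000863 in edgeR, n = 2 each), and Slc7a6 rose by 0.60 (SE 0.08), whereas Slc38a1, a glutamine transporter, fell from 77.3 and 77.7 CPM to 40.5 and 48.7 CPM (-0.80, SE 0.10, adjusted p = 0.000524). Of 17 other enzymes 6 rose (35.3%) and 3 fell (17.6%), with a median of -0.05. The risers Cbs and Mthfs, outside the naming rule, were scarce. Their means were 0.268 and 0.416 CPM in the controls and 1.22 and 0.961 CPM with C/EBPβ. With a filter at 1 CPM, 4 of the list were called higher. Gpt2, the mitochondrial alanine aminotransferase, fell from 193 and 205 CPM to 89.8 and 111 CPM (-0.99, SE 0.11, adjusted p = 0.000367), Got1, an aspartate aminotransferase, fell by 0.54 (SE 0.09) and Mthfd2l, the close relative of Mthfd2, rose by 0.62 (SE 0.10). Without empty-vector replicate 1 or 2 only 1 transporter was called lower, and without empty-vector replicate 2 only 2 of the other enzymes were called higher, while 6 of them were called lower without overexpressing replicate 2.

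Around the ER chaperone arm, more genes of protein folding and transport rose than fell. Of 18 ER oxidoreductases and glycoprotein folding factors 9 rose (50%, against 22.3% of all genes) and 1 fell (5.56%, against 20.9%), with a median of 0.24 on the log2 scale. Ppib, a prolyl isomerase of the ER, rose from 229 and 236 CPM to 354 and 356 CPM (0.61, SE 0.09, adjusted p = 0.00114 in edgeR, n = 2 each), Txndc12, a thioredoxin of the ER, by 0.61 (SE 0.08) and Sil1, the other exchange factor of BiP, by 0.48 (SE 0.07). The gene that fell was Dnajb11 (-0.44), a BiP co-chaperone outside the naming rule. No gene of that list was called lower without empty-vector replicate 2, and 2 were without overexpressing replicate 2. Of 22 genes of ER translocation and early transport 9 rose and none fell in edgeR (none fell at an unadjusted p under 0.05, in DESeq2 or in limma-voom), with a median of 0.15. The share called in either direction, 40.9%, was near the 43.2% of all genes, and all of it was higher, against 22.3%. The risers included Kdelr3, a receptor that returns ER proteins (0.72, SE 0.08), Sec61b, a subunit of the translocon that shares 17.4% of its windows with other genes (0.75, SE 0.09), and Sec24d, a coat protein of ER exit (0.58, SE 0.08). Without empty-vector replicate 1 the count of risers in the translocation list was 5.

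The prolyl and lysyl hydroxylases, isomerases and other factors that fold collagen in the ER had the highest share of risers among the 10 pathway lists, 82.4% against 22.3% of all genes. Of 17 genes 14 rose and none fell in edgeR, nor did any fall at an unadjusted p under 0.05, in DESeq2 or in limma-voom, and both overexpressing libraries lay above both controls for all 17, as they did for 38.4% of all genes. The 3 that did not pass were Serpinh1 (HSP47, 0.31, adjusted p = 0.0702 in edgeR), P4ha1 (0.23, adjusted p = 0.152) and Mia3 (0.11, adjusted p = 0.333). The median log2 fold change was 0.60, against 0.01 over all genes. Without empty-vector replicate 2 fewer of the 17 were called higher, as was so over all genes. P4ha3, a catalytic subunit of prolyl 4-hydroxylase, went from 19.2 and 16.4 CPM to 64.1 and 64.9 CPM (1.86, SE 0.10, adjusted p = 8.7e-06 in edgeR, n = 2 each). Crtap, of the prolyl 3-hydroxylation complex, rose from 79.4 and 70.9 CPM to 172 and 164 CPM (1.16, SE 0.09) and Fkbp11, an isomerase of secretory cells, by 1.27 (SE 0.10).

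Of 20 UPR sensors and ER-associated degradation genes 19 were tested, of which 7 rose (36.8%, against 22.3% of all genes) and 3 fell (15.8%, against 20.9%), with a median of 0.06. Ern1, which encodes IRE1, stood at 53.4 and 47.0 CPM against 56.8 and 55.6 CPM and did not pass (0.16 on the log2 scale, SE 0.08, adjusted p = 0.156 in edgeR, n = 2 each). Os9, a lectin of the degradation complex, and Creb3l2, an ATF6-like factor of secretory cells, rose by 0.57 (SE 0.09) and 0.59 (SE 0.10), and Ube2g2, the ubiquitin-conjugating enzyme of the pathway, fell by 0.67 (SE 0.10). Without empty-vector replicate 2 only 1 gene of the list was called lower.

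Chaperones outside the ER were listed for comparison. Of 12 cytosolic heat shock genes 5 fell (41.7%, against 20.9% of all genes) and 1 rose (8.33%, against 22.3%), with a median of -0.31. Hspb8, a small heat shock protein of muscle, fell from 231 and 215.5 CPM to 112 and 142 CPM (log2 fold change -0.81, SE 0.12, adjusted p = 0.00156 in edgeR, n = 2 each), and Hspb1 (-0.81, SE 0.09) and Hsp90aa1 (-0.55, SE 0.11) fell as well, although these last share 48.8% and 47.5% of their windows with other genes. Without empty-vector replicate 1 or 2, 3 genes of this list were called lower. The riser, Hspa1b, a stress-induced HSP70 outside the naming rule, had 0.34, shares 62.3% of its windows with Hspa1a and was not called in DESeq2 or without any single library. Of 10 mitochondrial chaperones and proteases none was called in edgeR, 1 had an unadjusted p under 0.05, and 1 (Hspa9, adjusted p = 0.0486) was called in DESeq2 and none in limma-voom. Hspa9, the mitochondrial HSP70, had -0.25 (SE 0.11, adjusted p = 0.104 in edgeR), and -0.35 without overexpressing replicate 2. That replicate, at 651 CPM against 579 CPM in replicate 1, was nearer to the controls at 721 and 739 CPM. Dnaja3, the co-chaperone of Hspa9, had -0.17 (SE 0.07, adjusted p = 0.092) and Yme1l1, an inner membrane protease, -0.13 (SE 0.10, adjusted p = 0.304).

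**Figure D5:**
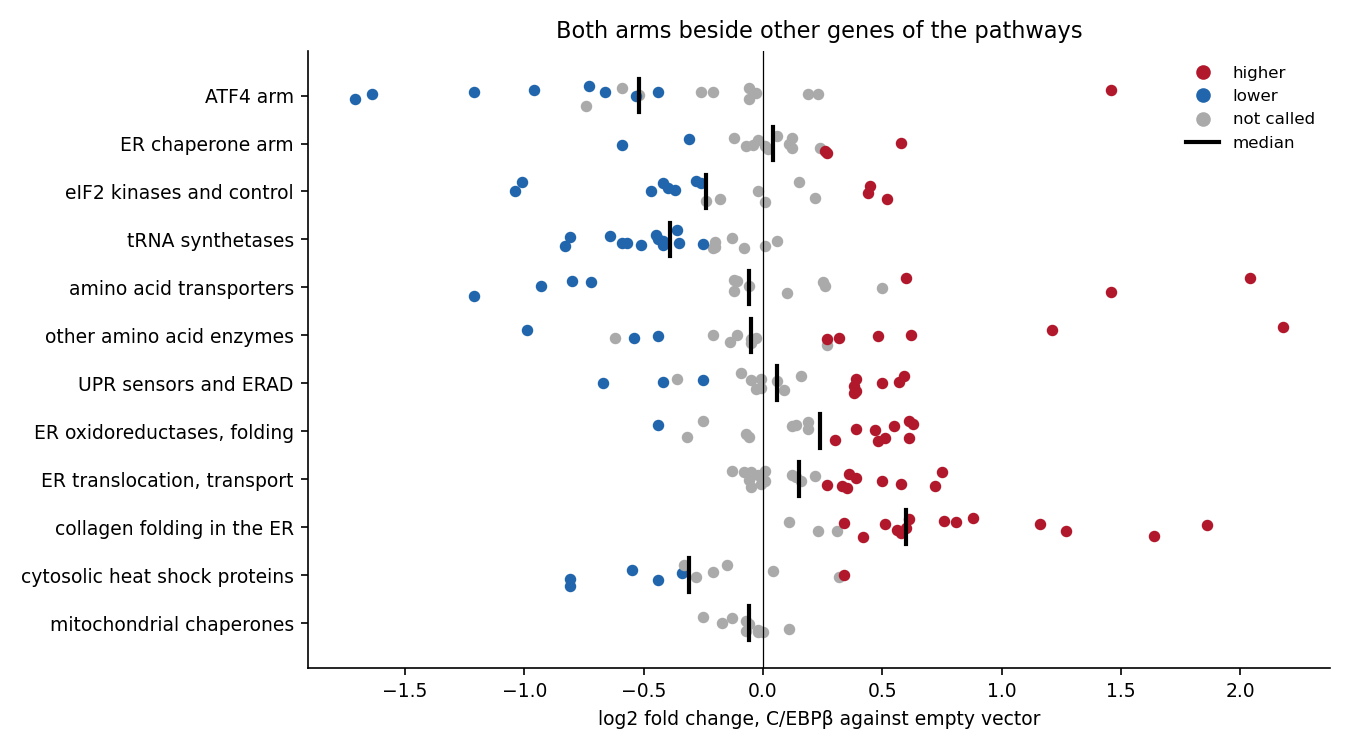
Log2 fold change of every tested gene of both arms and of the 10 pathway lists (points, spread vertically only for legibility), coloured by call, with the list median as a black bar. Medians run from -0.52 for the ATF4 arm and -0.39 for the tRNA synthetases to 0.60 for collagen folding, with the ER chaperone arm at 0.04.

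The authors' deposited table, whose libraries are not named, lists 10 genes of the ATF4 arm as lower and 1 as higher at an adjusted p under 0.05, and 2 genes of the ER chaperone arm as lower and 2 as higher. In the authors' deposited table Asns (log2 fold change -0.81, adjusted p = 9.15e-06) and Mthfd2 (-0.65, adjusted p = 7.62e-05) pass, and Edem1 (0.20, adjusted p = 0.143) does not, which are the 3 members whose calls differ from those given above.

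The level of Cebpb itself was 42.7 and 41.3 CPM in the controls and 502 and 442 CPM in the overexpressing libraries (log2 fold change 3.49, SE 0.11). Myogenic markers were abundant in every library. Among markers of cells that a muscle culture could also hold, Adgre1 and Tyrobp of macrophages, Lep of fat cells and Emcn of endothelium had no fragment in any library. The summed level of 9 macrophage markers was 8.22 to 9.11 CPM in the controls and 41.4 to 44.7 CPM with C/EBPβ, with 3 of the 6 tested higher and 1 lower. Most of that sum was Lyz2, at 0.135 and 0.0791 CPM in the controls and 28.4 and 26.1 CPM with C/EBPβ, and Cd14, at 5.38 and 4.74 against 11.8 and 10.9 CPM. Csf1r also rose (1.21), Itgam fell (-2.02) and Ptprc had 0 or 1 fragment a library. The summed level was, for 7 adipocyte markers, 8.02 to 9.62 and 15.5 to 20.6 CPM, with 3 of the 3 tested higher, and for 5 endothelial markers 0.650 to 0.830 and 0.273 to 0.708 CPM. Most of the adipocyte sum was Pparg, at 9.55 and 7.95 against 16.7 and 13.2 CPM, while Fabp4 and Plin1 were scarce even with C/EBPβ (2.51 and 1.59, 0.823 and 0.656 CPM). For 8 markers of fibro-adipogenic progenitors the ranges were 505 to 561 and 572 to 715 CPM, with 3 of 8 higher and 2 lower. Most of that sum was Dcn and Ly6a, neither of which passed. Pdgfra (2.85 on the log2 scale), Dpt (2.33) and Pi16 (0.87) rose, whereas Cd34 (-0.66) and Lum (-1.56) fell. The part of such cells in the values above was not tested. These marker counts stand beside 22.3% higher and 20.9% lower over all genes tested.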

How the data were processed

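The 35 genes, their arms and the 10 pathway lists were chosen with earlier results of these data known. Raw counts of fragments per gene were deposited for each of the 4 libraries. The submitters' processing notes name HISAT2 2.0.4, the build GRCm38 and featureCounts 1.4.6, while featureCounts 1.5.1, paired counting, the reverse strand and GENCODE M12 are given per the file headers. The authors' deposited table holds log2 fold changes, test scores and p-values, DESeq2 is named in the submitters' processing notes, and the libraries behind that table are not stated.

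Symbols were matched by identifier to a gene-name table, which covered 49326 of 49585 genes. Counts were filtered with filterByExpr (minimum count 10, minimum total 15), scaled by TMM and compared with edgeR 4.0.16 in R 4.3.3 (glmQLFit with robust estimation, glmQLFTest, 2-sided), with Benjamini-Hochberg adjustment over 15886 genes and a threshold of 0.05. The SE is the absolute log2 fold change divided by the square root of F. CPM uses TMM-scaled totals, and TPM the exon lengths in the count files. Arms and lists were counted, not tested. With 2 libraries a group, no exact permutation test can reach a 2-sided p under 0.333. The genes named are the 35 members, Cebpb, Ddit3, Trib3, Atf3, Eif2ak3, Ern1 and the 3 with the smallest p in each pathway list. Gm7901, Dnajb11, Hspa1a, Hspa1b, Serpinh1, P4ha1, Mia3, Slc7a11, Slc7a1, Slc7a5, Slc43a1, Cbs, Mthfs, Eif2ak1, Eif2ak2 and single cell type markers were named after their values were seen. Alternatives were DESeq2 1.42.0, limma-voom (limma 3.58.1), other scalings and filters, and fits without robust estimation, with a replicate block and without each library. Replicates differed by more than sampling noise (chi-square over its degrees of freedom 13.1 for empty vector, 18.4 for C/EBPβ). Shared sequence is the percent of 50-base windows in a gene's transcripts that other genes' transcripts also hold, in GENCODE M21.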

Additional observations from a re-analysis of the deposited data

How the results depend on the processing

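All 14 members called kept their direction in all 12 alternatives, and 5 of them (Chac1, Shmt2, Vldlr, Eif4ebp1 and Atf6) kept their call in every one. Of 420 values (35 members in 12 alternatives) 358 kept direction and call, 25 lost the call, 18 gained it and 19 changed sign, all of them in genes that were not called. With library sizes alone, the median of all genes was 0.07, and Nupr1 (0.03), Hyou1 (0.03) and Sel1l (0.01) changed sign. Leaving out 1 library at a time, the log2 fold change changed sign for 11 genes and ranged from -0.17 to 0.06 for Atf4, -0.21 to 0.12 for Nupr1, -0.07 to 0.17 for Hspa5, -0.13 to 0.14 for Hsp90b1, -0.09 to 0.05 for Hyou1, -0.11 to 0.11 for Dnajb9, -0.17 to 0.01 for Creld2, -0.01 to 0.22 for Manf, -0.02 to 0.20 for Pdia4, -0.32 to 0.03 for Pdia6 and -0.11 to 0.02 for Sel1l. With a replicate block, 2 genes of the ATF4 arm were called higher (Atf5 joined Vldlr), and 19 members were called in all, with calls gained by Asns (-0.77, adjusted p = 0.000835 in edgeR), Mthfd2 (-0.61, 0.000464), Atf5 (0.22, 0.0457), Psph (-0.26, 0.0376) and Sdf2l1 (0.24, 0.0426). Replicate numbers shared no stated culture, and the deviations of same-numbered libraries correlated at 0.147 across genes. The ER chaperone arm had 1 gene called lower with library sizes alone, with a filter at 1 CPM and without robust estimation. The count of amino acid transporters called higher was 5 with no filter on low counts. DESeq2 called 0 cytosolic heat shock genes higher and 1 mitochondrial gene lower. Leaving out 1 library at a time, genes called ranged from 2083 to 3703 higher and 1824 to 3674 lower over all genes, 1 to 2 higher and 4 to 12 lower in the ATF4 arm, and 0 to 3 higher and 1 to 3 lower in the ER chaperone arm. The same ranges were 2 to 8 lower for the eIF2 list, 3 to 16 lower for tRNA synthetases, 1 to 4 lower for transporters, 2 to 7 higher and 2 to 6 lower for other amino acid enzymes, 1 to 3 lower for UPR sensors, 0 to 2 lower for oxidoreductases, 5 to 9 higher for translocation, 0 higher and 3 to 7 lower for heat shock genes and 0 to 1 lower for mitochondrial genes. With 1 library left in a group, that library is assumed to vary like the others. Spelled exactly as TTGCATCA, the CARE was matched in 4 ATF4 arm genes and 1 ER chaperone gene. The cause of these differences was not tested.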
